A study of Mus musculus with 4 samples.

Results

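The lysosomal cathepsins and legumain are the proteases that degrade proteins inside lysosomes, and 10 of their genes (Ctsa, Ctsb, Ctsc, Ctsd, Ctsh, Ctsk, Ctsl, Ctss, Ctsz and Lgmn) were followed here in infarcted mouse hearts. The genes were chosen by symbol from the platform's annotation, with 1 probe per gene, out of 19505 named symbols and 22206 probes. A named probe was used for 9 of the 10, each gene having 1 probe, while Ctsd, the aspartic cathepsin, had no probe under that symbol and gave no expression value, so that it appears below only among the promoters. Expression was measured on Clariom S Mouse arrays in the hearts of 4 male mice, 3 months after an infarct made by coronary ligation in mice aged 8 weeks. The control group (Ctrl-MI, 2 hearts) had the genotype Tcf21iCre/Tomato and the transgenic group (TTg-MI, 2 hearts) had Tcf21iCre/Tomato/MGTH2A, so that both groups carried the Cre, the reporter and the infarct. Cre follows Tcf21, a gene of cardiac fibroblasts, while MGTH2A is known as a single construct for the cardiac factors Mef2c, Gata4, Tbx5 and Hand2. Mice that kept a high ejection fraction soon after surgery had been removed from the study, per the labels. RNA came from tissue labelled as whole heart, in which muscle, stromal, vascular and immune cells are mixed.

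Lysosomal proteases are made as inactive precursors, tagged with mannose 6-phosphate, carried to the lysosome and activated there at acid pH. Most cathepsins are cysteine proteases related to papain; cathepsin A is a serine carboxypeptidase, and legumain cuts after asparagine and helps to process other cathepsins. In the injured heart macrophages are a rich source, cathepsin S trims the invariant chain that guards class II antigen presentation, and the cathepsins K, L and S can cut elastin or collagen when released.

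Heart muscle markers were bright on all 4 arrays, Myh6 between 19.42 and 19.76 log2 units and Mb, at or near each array's highest value, between 19.92 and 19.93. Some atrial markers, expected in whole heart, were uneven between arrays. Ctrl-MI replicate 2 read 5.61 for the atrial myosin light chain Myl7, against 10.44 on Ctrl-MI replicate 1 and 11.47 to 12.45 in TTg-MI. It read 7.70 for the light chain Myl4 and 7.90 for sarcolipin (Sln), against 14.61 to 16.34 and 13.06 to 14.42 on the other arrays. The atrial growth factor gene Bmp10 was low on both Ctrl-MI arrays, 5.31 and 5.39 against 12.38 and 11.82 in TTg-MI, and was the 1 probe called by limma over all probes (adjusted p = 0.00489 with Benjamini-Hochberg). The part of unequal atrial tissue in the results was not tested. Ctrl-MI replicate 1 stood apart on the first principal component of all probes (58.4% of the variance), with a score of -47.12 against -1.29 to 31.89 for the other arrays. Results are therefore also given without these arrays. All 9 measured members lay above the lower quartile of every array (5.41 to 5.48) and none came within 1 log2 unit of an array's highest value.

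Lysosomal protease genes mostly had lower means in TTg-MI hearts, 8 of the 9, with Ctsh as the exception, and 47.7% of all probes had a lower mean. The median log2 difference (TTg-MI mean minus Ctrl-MI mean) of the 9 was -0.58, a 1.498-fold difference, beside 0.01 for all probes. For 6 members (Ctsa, Ctsb, Ctsl, Ctss, Ctsz and Lgmn) each TTg-MI value was under each Ctrl-MI value, which held for 18.7% of all probes. In limma, 0 members passed Benjamini-Hochberg adjustment over all probes (adjusted p from 0.534 to 0.943), where 1 probe in all was called, 0.0045%. At an unadjusted p under 0.05 there were 4 members, Ctsz, Ctsl, Ctss and Ctsa, all lower, beside 5.07% of all probes in that direction and 8.25% in either. An ordinary linear model also passed 0 members after adjustment and put 1, Ctsl, at an unadjusted p under 0.05, beside 5.59% of all probes in that fit. In whole-heart RNA, fewer cells of a type and less RNA per cell cannot be told apart.

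**Figure D1:**
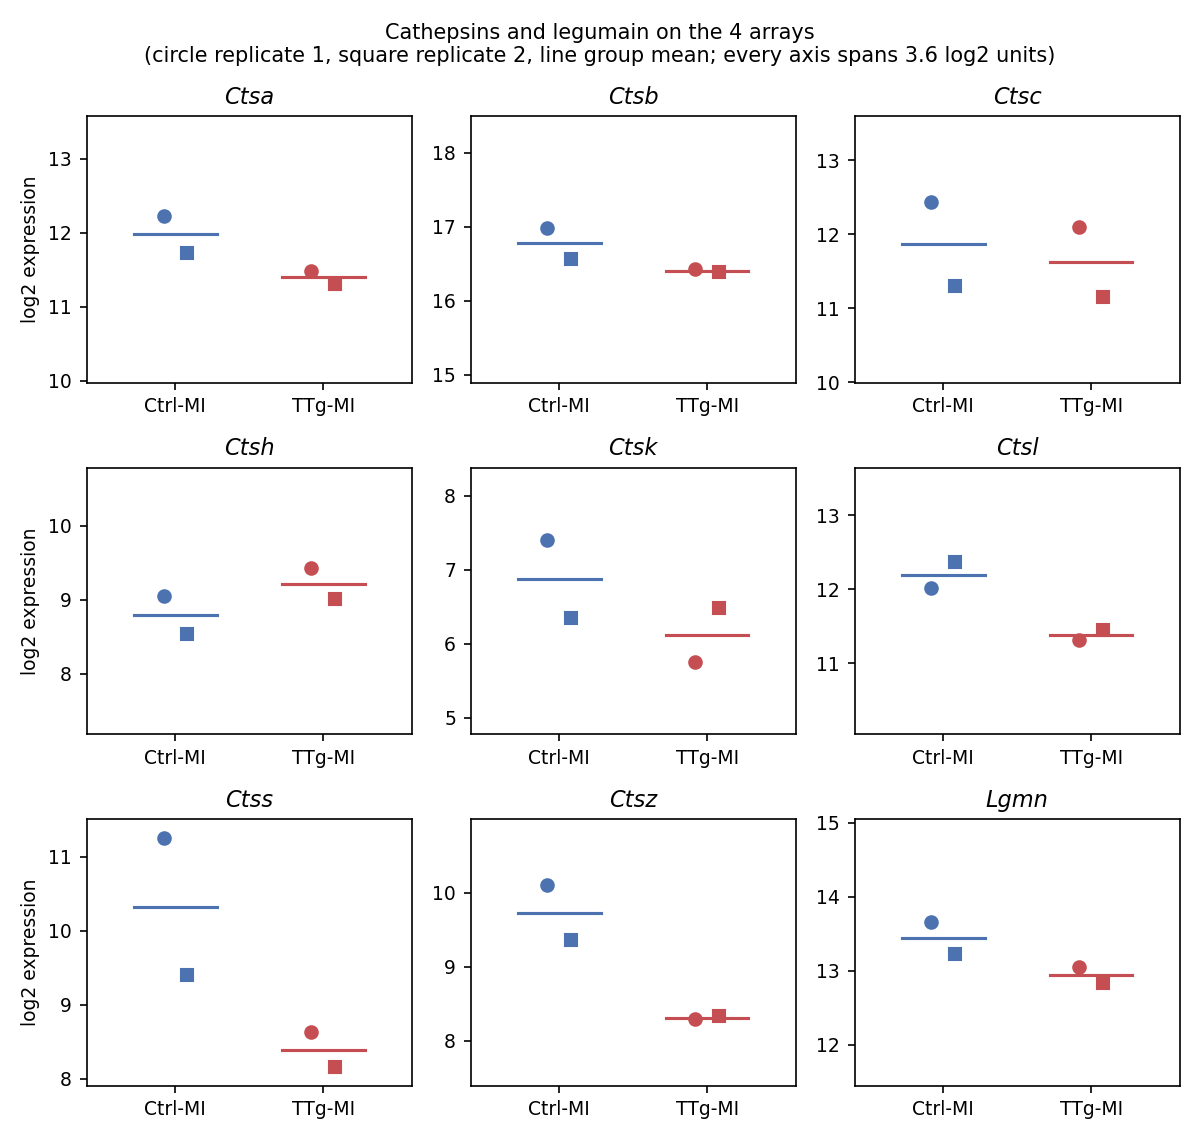
Log2 expression of the 9 measured genes (vertical axes, each 3.6 log2 units tall) in Ctrl-MI and TTg-MI hearts; circles are replicate 1, squares replicate 2 and lines the group means of 2 arrays. The TTg-MI points of Ctss (8.16 and 8.63) and Ctsz (8.29 and 8.34) lie below both Ctrl-MI points, while those of Ctsc, Ctsh and Ctsk overlap the Ctrl-MI points.

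Ctss encodes cathepsin S, an endopeptidase of macrophages and other antigen-presenting cells that stays active at neutral pH. Its value was 11.25 and 9.40 log2 units on Ctrl-MI replicates 1 and 2 and 8.63 and 8.16 on TTg-MI replicates 1 and 2. Ctrl-MI replicate 1 was far above the other 3 arrays, and the groups did not overlap. The group means were 10.33 ± 1.31 and 8.40 ± 0.33 (SD, n = 2 each). The TTg-MI mean was thus 3.81-fold lower, at a log2 difference of -1.93 (SE 0.59, 95% interval -3.41 to -0.46). In limma with Benjamini-Hochberg adjustment it had an adjusted p of 0.555. Leaving out Ctrl-MI replicate 1 gave -1.004 and leaving out Ctrl-MI replicate 2 gave -2.86, each with 1 control array left.

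Ctsz encodes cathepsin Z, a carboxypeptidase that removes single residues from the end of a chain. It read 10.10 and 9.36 in Ctrl-MI and 8.29 and 8.34 in TTg-MI, so the higher TTg-MI heart lay 1.02 log2 units below the lower control. The means were 9.73 ± 0.52 and 8.31 ± 0.03 (SD, n = 2 each). The log2 difference of -1.41 (SE 0.27, 95% interval -2.08 to -0.75), 2.67-fold, had the smallest p of the 9 genes in limma (adjusted p = 0.534 with Benjamini-Hochberg). It stayed between -1.78 and -1.04 as single arrays were left out. Without Ctrl-MI replicate 2 the adjusted p in limma was 0.0317, among 332 probes called in that fit (1.5% of all).

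Ctsl encodes cathepsin L, a broad endopeptidase needed in heart muscle for normal lysosomal turnover. It was 12.01 and 12.36 on the Ctrl-MI arrays and 11.32 and 11.45 on the TTg-MI arrays. Unlike Ctss and Ctsz, its highest value was on Ctrl-MI replicate 2. The log2 difference was -0.80 (SE 0.18, 95% interval -1.27 to -0.34), 1.75-fold, with an adjusted p of 0.546 in limma. Over the 4 fits that left out 1 array it ran from -0.98 to -0.63, and in each of them Ctsl had an unadjusted limma p under 0.05.

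Ctsk encodes cathepsin K, the collagen- and elastin-cutting protease best known from osteoclasts and also made by fibroblasts. Its arrays read 7.41 and 6.35 in Ctrl-MI and 5.75 and 6.48 in TTg-MI. TTg-MI replicate 2 lay above Ctrl-MI replicate 2, so the groups overlapped. The log2 difference was -0.76 with an interval from -1.79 to 0.27 (limma, adjusted p = 0.6999). With Ctrl-MI replicate 1 or TTg-MI replicate 1 left out it was -0.23 or -0.39, and with the replicate 2 of either group left out it was -1.29 (Ctrl-MI) or -1.12 (TTg-MI). Ctsk and Ctss are adjacent protein-coding genes on chromosome 3 in RefSeq's GRCm38.p6 annotation.

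Ctsb, Lgmn and Ctsa, for the endo- and carboxypeptidase cathepsin B, legumain and cathepsin A, had nearly the same pattern over the arrays. Ctsb read 16.99 and 16.56 in Ctrl-MI against 16.42 and 16.40 in TTg-MI, a log2 difference of -0.37 (SE 0.19). Lgmn read 13.67 and 13.23 against 13.06 and 12.83, a difference of -0.50 (SE 0.21). Ctsa, whose product also shields β-galactosidase and neuraminidase 1 in a lysosomal complex, read 12.23 and 11.72 against 11.48 and 11.31, a difference of -0.58 (SE 0.22). In all of them Ctrl-MI replicate 1 was highest, TTg-MI replicate 2 lowest, and the groups were apart. Their adjusted p in limma were 0.693, 0.611 and 0.588. With Ctrl-MI replicate 1 left out the differences of Ctsb, Lgmn and Ctsa were -0.15, -0.28 and -0.33. With Ctrl-MI replicate 2 left out that of Ctsb was -0.58.

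Ctsc and Ctsh encode exopeptidases, cathepsin C (dipeptidyl peptidase 1, which activates the granule proteases of leukocytes) and the aminopeptidase cathepsin H. Ctsc read 12.44 and 11.30 in Ctrl-MI and 12.10 and 11.15 in TTg-MI. Its spread within each group was larger than the difference between the groups (log2 difference -0.24, interval -1.41 to 0.92). The sign turned, to 0.33 or 0.23, when Ctrl-MI replicate 1 or TTg-MI replicate 2 was left out, and the difference was -0.81 or -0.72 when Ctrl-MI replicate 2 or TTg-MI replicate 1 was. Ctsh was the member with a higher TTg-MI mean, 9.43 and 9.004 against 9.06 and 8.54 in Ctrl-MI. Here too the groups overlapped, and the log2 difference of 0.42 had an interval from -0.20 to 1.04 (limma, adjusted p = 0.731). It was 0.68 or 0.63 with Ctrl-MI replicate 1 or TTg-MI replicate 2 left out, and 0.21 or 0.16 with TTg-MI replicate 1 or Ctrl-MI replicate 2 left out.

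**Figure D2:**
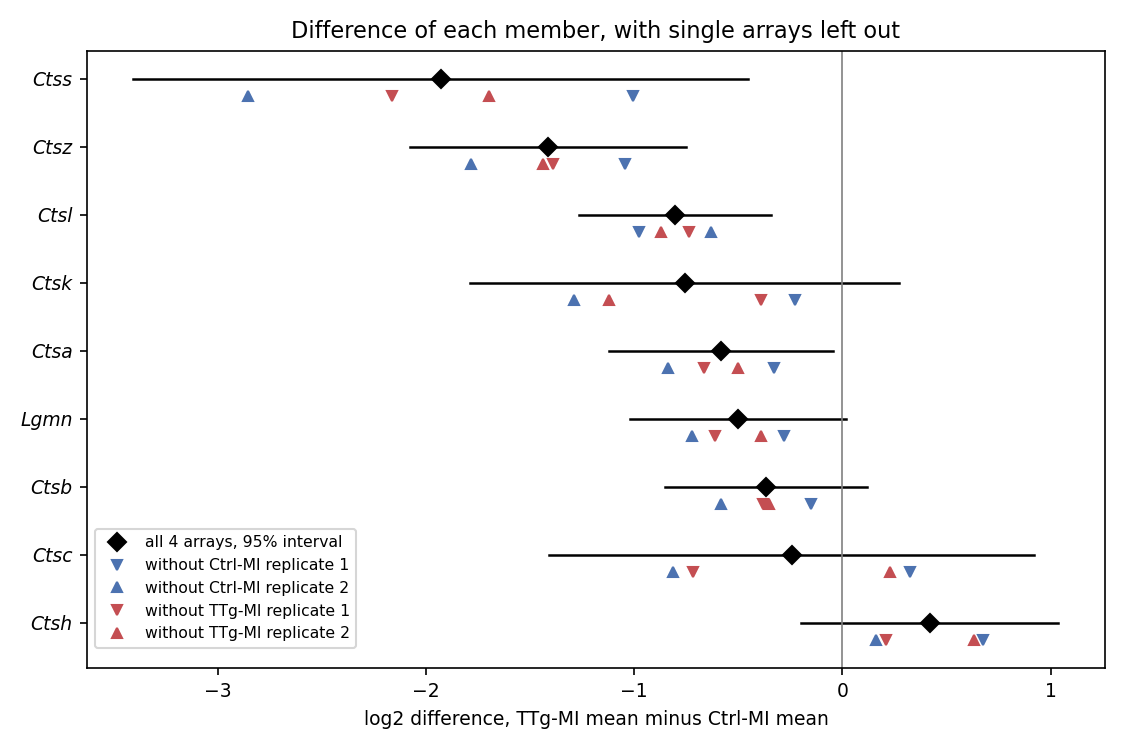
Log2 difference of each measured gene (horizontal axis, TTg-MI mean minus Ctrl-MI mean), with diamonds and bars for the fit on 4 arrays with its 95% interval and triangles for the fits without 1 array. The bars of Ctss, Ctsz, Ctsl and Ctsa lie below 0, the triangles of Ctss run from -2.86 to -1.004, and those of Ctsc fall on both sides of 0.

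Over the family, Ctrl-MI replicate 1 held the highest value for 7 of the 9 genes, all but Ctsh and Ctsl, where it did so for 29.6% of all probes. The Ctrl-MI hearts were further apart than the TTg-MI hearts for 9 of 9, beside 56.5% of all probes. Without Ctrl-MI replicate 1 the median difference of the members was -0.28 and 7 of 9 were lower. Without Ctrl-MI replicate 2 it was -0.81 with 8 of 9 lower. In the same fits 4 and 7 members had an unadjusted limma p under 0.05, the 4 being Ctsl, Ctss and Ctsz lower and Ctsh higher, beside 6.34% and 14.7% of all probes. Without TTg-MI replicate 2 there were 2, Ctsl and Ctsz, beside 3.88%.

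Likeness between members was measured as the root-mean-square distance between their 4 array values, each gene centred on its own mean. Of the 36 pairs, Ctsa and Lgmn were closest at 0.05 log2 units, followed by Ctsb and Lgmn at 0.10, while Ctsh and Ctss were furthest apart at 1.27. The neighbours Ctsk and Ctss were 0.78 apart. Among 10044 other genes at or above the median level, those nearest to the mean profile of the members were H2bc15 (a histone H2B gene) at 0.01, Sting1 (the sensor adaptor of cytosolic DNA signalling) at 0.02, Fndc3b and Sdc2 (syndecan 2) at 0.03, and H2-Q4 (a class I histocompatibility gene) at 0.04. With 4 arrays, these distances describe the hearts measured here and carry no test.

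Promoters of the family were searched for shared motifs. The RefSeq table (build GRCm38.p6, 250 bases before to 50 after a start) held windows for 8 of the 10 genes, all but Ctsb and Ctsh, with 2 windows each for Ctsa and Lgmn. Both strands were searched for CACGTG, the E-box bound by TFEB and its relatives, for TCACGTGA, the core of the CLEAR element of lysosomal genes, which contains CACGTG, and for GAGGAAGT, a motif of the kind bound by PU.1 of macrophages. CACGTG was in 4 of the members' 10 windows, 1 each of Ctsa, Ctsd, Ctsl and Lgmn, and in 7.15% of the 32851 windows in the table. TCACGTGA was in 2 of the 10, of Ctsa and Ctsd, and in 0.974% of all windows. GAGGAAGT was in 2 of the 10, of Ctss and Ctsc, and in 3.20% of all. The windows of Ctsz and Ctsk held none of these letters. A match is a description of the letters, not of binding.

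The stretches below carry the matches in the measured members, shown because these genes cover the largest difference (Ctss), the smallest p with a match (Ctsl) and the closest pair (Ctsa and Lgmn). Each is written 5′ to 3′ on the strand of its gene, with CACGTG in capitals for Ctsa, Ctsl and Lgmn and the reverse complement of GAGGAAGT in capitals for Ctss and Ctsc. Those of Ctsa and Lgmn belong to the second start listed for the gene. The Ctsa match lies 12 bases before that start and is part of TCACGTGA, and a second such match begins 6 bases into the transcript. The Ctss match runs across the start itself.
Ctsa, chr2:164833743-164833772, plus strand: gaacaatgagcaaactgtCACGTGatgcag
Lgmn, chr12:102439123-102439152, minus strand: ggaatgtctgtCACGTGgtccattttatag
Ctsl, chr13:64370711-64370770, minus strand: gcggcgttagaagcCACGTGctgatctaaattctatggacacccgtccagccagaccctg
Ctss, chr3:95526732-95526791, plus strand: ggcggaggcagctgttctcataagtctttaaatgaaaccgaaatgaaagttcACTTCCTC
Ctsc, chr7:88277910-88277969, plus strand: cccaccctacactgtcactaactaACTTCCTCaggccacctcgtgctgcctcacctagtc

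The 3 measured members with CACGTG had log2 differences of -0.58 (Ctsa), -0.80 (Ctsl) and -0.50 (Lgmn). Ctss and Ctsc, which both held GAGGAAGT, had differences of -1.93 and -0.24, and Ctsz and Ctsk, with none of the letters searched, had -1.41 and -0.76. The groups were apart with TTg-MI below for Ctsa, Ctsl, Lgmn, Ctss and Ctsz but not for Ctsc and Ctsk, beside 18.7% of all probes. Whether the motifs bear on expression was not tested.

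The other cathepsins, a list of 14 genes with both broadly expressed members such as Ctsf and Ctso and ones known from placenta or blood cells, had a median log2 difference of 0.06, with 4 lower and 10 higher means. That median turned to -0.01 or -0.00872 when the replicate 2 of Ctrl-MI or of TTg-MI was left out, and was 0.13 or 0.11 when the replicate 1 was. Of these 14, 6 were dim on every array, which means under its lower quartile. Ctse, an aspartic cathepsin of gut and immune cells, read 6.01 and 6.13 in Ctrl-MI and 5.54 and 5.49 in TTg-MI (log2 difference -0.56, SE 0.15). Ctsf, a cysteine cathepsin, went the other way with 7.55 and 7.80 against 8.07 and 8.22 (0.47, SE 0.17). Both had an unadjusted limma p under 0.05, beside 8.25% of all probes in either direction, and neither passed limma over all probes (adjusted p of 0.546 and 0.588). The TTg-MI values of Ctse lay just above the lower quartiles of those arrays (5.48 and 5.47).

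Inhibitors of the cathepsins block the proteases that escape or are secreted. Of 12 measured cystatins, stefins and other inhibitors 10 were lower by their means, with a median log2 difference of -0.18. Filtering out dim probes gave a median of -0.67, and leaving out Ctrl-MI replicate 1 or TTg-MI replicate 2 gave -0.29 or -0.30. The 4 at an unadjusted limma p under 0.05 were all lower, beside 5.07% of all probes. Cst3 encodes cystatin C, the main secreted inhibitor of cysteine cathepsins, and read 17.77 and 17.27 in Ctrl-MI against 16.81 and 16.50 in TTg-MI (-0.86, SE 0.23). Cstb, for the cytosolic cystatin B, read 7.91 and 8.15 against 7.06 and 7.03 (-0.99, SE 0.16), and Serpinb6a, a serpin of the cytosol, differed by -0.75 (SE 0.18). Their adjusted p in limma with Benjamini-Hochberg were 0.546, 0.530 and 0.546. Another 5 inhibitors, Cst7 and the stefins Stfa1, Stfa2, Stfa2l1 and Stfa3, were dim on all 4 arrays.

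The rest of the lysosome was read from lists of hydrolases, membrane proteins, sorting factors and proton pump subunits. Of 25 other hydrolases 21 were lower by their means, their median log2 difference being -0.32, and for 15 the groups were apart with TTg-MI below, beside 18.7% of all probes. Hexa, a subunit of β-hexosaminidase, read 10.63 and 10.38 against 9.54 and 9.11 (-1.18, SE 0.21). Asah1, the acid ceramidase, differed by -0.96 (SE 0.20), and Acp5, the acid phosphatase of macrophages and osteoclasts, by -0.61 (SE 0.17). At an unadjusted limma p under 0.05 there were 6 hydrolases, all lower, beside 5.07% of all probes, and 0 passed over all probes.

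Of 12 membrane proteins 10 had a lower mean, with a median log2 difference of -0.35. The tetraspanin Cd63 read 13.60 and 13.15 against 12.36 and 12.11 (-1.14, SE 0.21), Npc2, a cholesterol carrier of the lumen, differed by -0.72 (SE 0.19), and Laptm5, a lysosomal protein of blood cells, by -1.21 (SE 0.36). The general lysosomal membrane proteins Lamp1 and Lamp2 differed by -0.17 (SE 0.15) and -0.46 (SE 0.22), both named after their values were seen. For both the groups were apart with TTg-MI below, which held for 8 of the 12 membrane genes and for 18.7% of all probes. The 12 sorting genes had a median of -0.13 (between -0.19 and -0.04 in the fits that left out 1 array), with Grn (progranulin) at -0.84 (SE 0.32), Nagpa at -0.35 (SE 0.19) and the sorting adaptor Gga2 at 0.42 (SE 0.16). The 17 proton pump subunits had a median of -0.20, which became -0.34 or -0.12 when the replicate 1 or 2 of Ctrl-MI was left out. Among them were Tcirg1, a subunit of macrophage and osteoclast pumps, at a difference of -0.60 (SE 0.20), Atp6v1a at -0.41 (SE 0.16) and Atp6v0e at -0.37 (SE 0.18). At an unadjusted limma p under 0.05 were 4 of 12 membrane genes and 2 of 17 pump genes, all lower. So were 2 of 12 sorting genes, Grn lower and Gga2 higher. The share over all probes was 5.07% lower and 8.25% in either direction, and 0 of these lists' genes passed adjustment over all probes.

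Among the transcription factors of lysosomal genes there was no common direction. Tfeb read 8.85 and 9.14 in Ctrl-MI and 9.46 and 9.07 in TTg-MI (log2 difference 0.27, SE 0.21), with overlap. Mitf, which also serves in heart muscle and osteoclasts, read 9.99 and 11.46 against 11.62 and 11.85 (1.01, SE 0.47), and its low value was that of Ctrl-MI replicate 1. Tfec, a macrophage relative, differed by -0.38 (SE 0.16). In limma 0 of the 4 factors had an unadjusted p under 0.05, and the adjusted p of Tfeb, Mitf and Tfec were 0.804, 0.644 and 0.619.

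**Figure D3:**
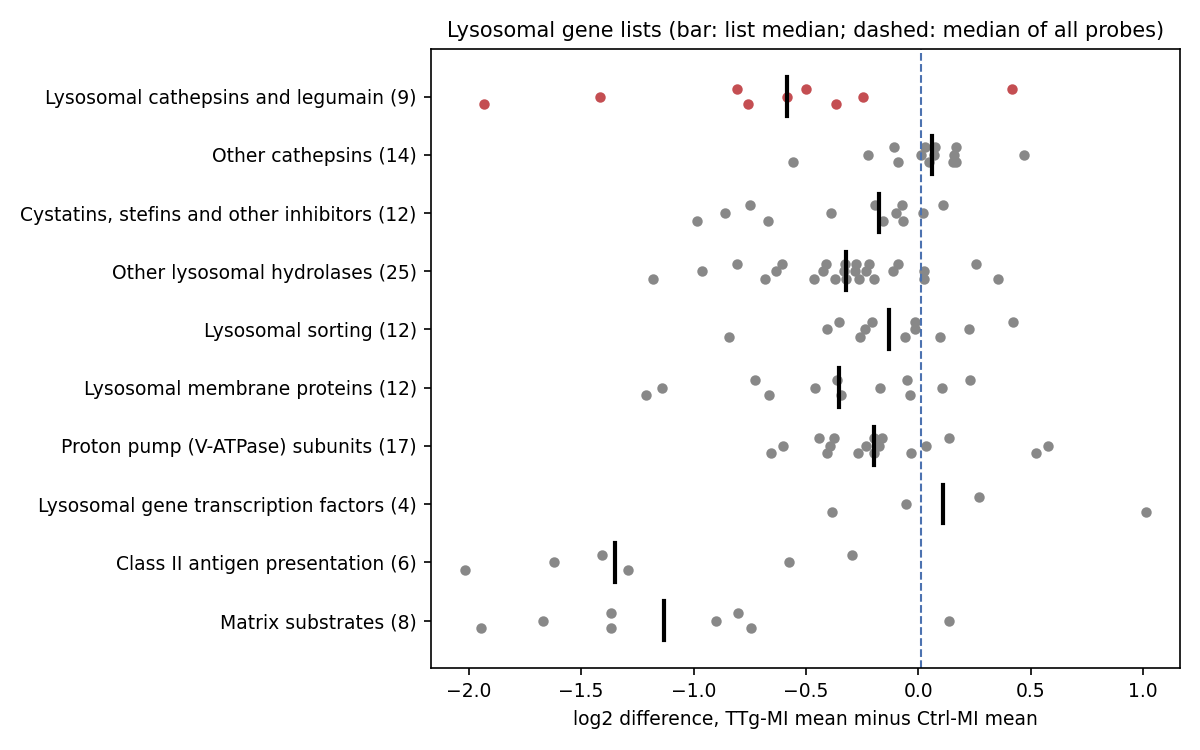
Log2 differences (horizontal axis, TTg-MI mean minus Ctrl-MI mean) of single genes in each lysosomal list, with the number measured in brackets, a black bar at the list's median and a dashed line at the median of all probes, 0.01. The medians run from -1.35 for class II antigen presentation to 0.11 for the transcription factors, with the cathepsins and legumain at -0.58.

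Lists of substrates and partners had medians further below 0 than that of the proteases. Cathepsin S cuts the invariant chain bound to class II molecules. The gene of the invariant chain itself, Cd74, had no probe under that symbol. The 6 measured genes of that pathway, among them the classical chains, the peptide exchange factor H2-DM and the coactivator Ciita, all had lower TTg-MI means, with a median of -1.35. For 3 of the 6 the groups were apart with TTg-MI below, beside 18.7% of all probes, while Ciita, H2-Ab1 and H2-DMa overlapped. H2-Aa read 13.47 and 11.22 in Ctrl-MI and 10.60 and 10.06 in TTg-MI (-2.02, SE 0.71), H2-DMb1 differed by -1.41 (SE 0.40) and H2-Eb1 by -1.62 (SE 0.61). Like Ctss, H2-Aa was far higher on Ctrl-MI replicate 1 than elsewhere. The median of the list was -0.39 without that array, with 5 of 6 lower, all but Ciita. It was -2.23 when Ctrl-MI replicate 2 was left out. Of 8 matrix substrates 7 were lower, with a median of -1.13, which became -0.73 or -0.74 when Ctrl-MI replicate 1 or TTg-MI replicate 2 was left out. Elastin (Eln) differed by -1.37 (SE 0.20), fibronectin (Fn1) by -1.95 (SE 0.68) and the laminin chain Lamc1 by -0.90 (SE 0.15). Unadjusted limma p under 0.05 were found for 3 class II and 4 matrix genes, all lower, beside 5.07% of all probes in that direction. After adjustment over all probes 0 of either list passed.

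Macrophages and fibroblasts are both known to make these proteases, and the means of their markers were lower as well. All 14 measured macrophage markers had lower TTg-MI means, with a median log2 difference of -0.96. Without Ctrl-MI replicate 1 the median was -0.41 with 12 of 14 lower, all but Fcgr1 and Mertk, and without Ctrl-MI replicate 2 it was -1.55 with 14 lower. For 9 of the 14 the groups were apart with TTg-MI below, beside 18.7% of all probes, while Fcgr1, Cx3cr1, Lyve1, Timd4 and Mertk overlapped. Their summed signal was 14.01 to 15.30 log2 units in Ctrl-MI and 12.73 to 13.55 in TTg-MI, and 0 of them were dim on all 4 arrays. Such sums add unlogged values, so the brightest genes weigh most, here Lyz2 (14.64 and 13.32 in Ctrl-MI, 12.69 and 11.31 in TTg-MI). All 11 measured fibroblast markers had lower means too, with a median of -1.30. Their sums, made the same way, were 19.26 to 19.89 in Ctrl-MI and 18.47 to 18.97 in TTg-MI, with Dcn alone at 19.24 and 18.59 in Ctrl-MI and 18.46 and 17.88 in TTg-MI. Col1a1, Col1a2, Col3a1 and Dcn are counted both in this list and among the matrix substrates above, so these lists are not separate observations. The fibroblast median became -0.80 or -0.81 when Ctrl-MI replicate 1 or TTg-MI replicate 2 was left out, with 11 lower in both fits. Among the macrophage genes, 2 named after their values were seen, Mrc1 read 11.15 and 9.9996 against 9.29 and 8.71, and Csf1r 10.27 and 9.14 against 8.74 and 8.78. Relative to its own 4-array mean, the members' mean was 0.70, -0.01, -0.27 and -0.42 from Ctrl-MI replicate 1 to TTg-MI replicate 2. In the same order the macrophage list stood at 0.93, -0.03, -0.30 and -0.60 and the fibroblast list at 1.10, 0.27, -0.22 and -1.15. The matrix substrates stood at 0.84, 0.24, -0.23 and -0.86. The part of either cell type in the members' differences was not tested.

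Of the 7 atrial markers 5 had higher TTg-MI means and 2, Nppa and Dkk3, had lower ones. Their median log2 difference was 2.75. It was -0.43 without Ctrl-MI replicate 2, the array low in Myl7, Myl4 and Sln, and 5.84 without Ctrl-MI replicate 1. The summed signal of the 7 was 20.30 and 20.02 log2 units on Ctrl-MI replicates 1 and 2. It was 20.43 and 19.18 on TTg-MI replicates 1 and 2, so Ctrl-MI replicate 2 was not the lowest by this sum. The brightest genes weigh most here too, such as Nppa (19.92 and 19.90 in Ctrl-MI, 19.91 and 18.85 in TTg-MI). By the mean log2 value of the 7, Ctrl-MI replicate 2 was the lowest array, at 10.07. That mean was 13.46 on Ctrl-MI replicate 1 and 14.70 and 13.44 on TTg-MI replicates 1 and 2. The 10 cardiomyocyte markers had a median log2 difference of 0.07, although most lay within 1 log2 unit of the highest value, and the 7 endothelial markers -0.03 (between -0.37 and 0.29 in the fits that left out 1 array). Neutrophil, dendritic, lymphoid and osteoclast lists had medians of 0.04, -0.00113, -0.13 and -0.11. The osteoclast genes Dcstamp, the neutrophil genes S100a8 and Ngp and the dendritic genes Flt3 and Clec9a were dim on all 4 arrays.

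**Figure D4:**
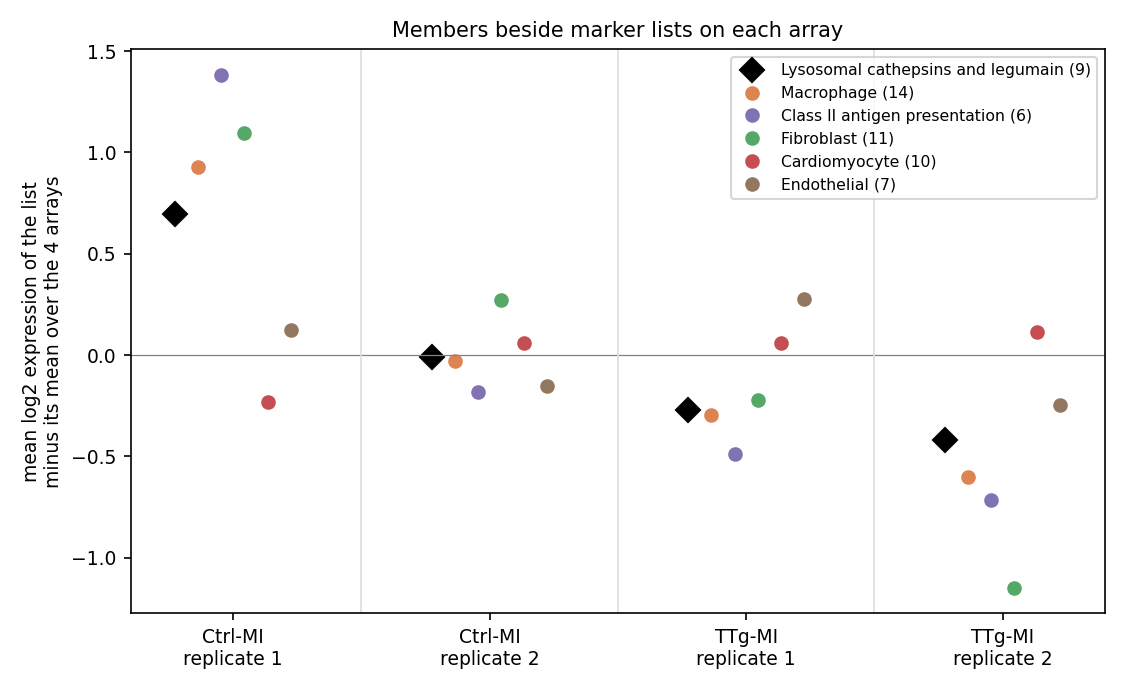
Mean log2 expression of the cathepsins and legumain and of 5 gene lists on each array (vertical axis, minus the list's own mean over the 4 arrays; number of genes in brackets). The members stand at 0.70, -0.01, -0.27 and -0.42 from Ctrl-MI replicate 1 to TTg-MI replicate 2, the macrophage markers at 0.93, -0.03, -0.30 and -0.60, and the cardiomyocyte markers between -0.23 and 0.11.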

How the data were processed

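RNA of 4 hearts, labelled as whole heart, was hybridised to Clariom S Mouse arrays. Per the submitters' processing notes, the authors used Affymetrix Expression Console 1.4, and they deposited 1 log2 value per probe (transcript cluster). The log base was taken from the range of the values, and the normalization, summarization and build are not given in the sources used here. Values were used as deposited, with no filter. Precision is limited by the number of arrays, which have no read depth. The series' design text calls the 2 hearts of each group independent biological replicates.

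Of 22206 probes, 19572 had 1 gene symbol in the platform's annotation, 0 had several symbols and 2634 were unnamed here. Where a symbol had several probes, the one with the highest mean was used. TTg-MI was compared with Ctrl-MI in limma 3.58.1 (R 4.3.3; lmFit and eBayes, two-sided, 2 residual and 3.56 prior degrees of freedom), and p-values were adjusted by Benjamini-Hochberg across the whole table, with 0.05 as the limit. The smallest two-sided p that an exact permutation test of 2 hearts against 2 can reach is 0.333. The fit was tested on simulated data. All members were named, with up to 3 genes of each list by smallest p and the 5 nearest profiles; cell type markers, Lamp1 and Lamp2 were named outside this rule after their values were seen. The members and lists were chosen with earlier results of these data known. Alternatives tried were median centring, quantile normalization, dropping the lowest 25% of probes, an ordinary linear model, a trended and robust eBayes prior, the mean of a symbol's probes, a block for the replicate number, and each array left out; for the marker lists this last was chosen after seeing the data.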

Additional observations from a re-analysis of the deposited data

How the results depend on the processing

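With median centring, quantile normalization, dim probes filtered out, a symbol's probes averaged, a trended and robust prior, an ordinary linear model or the replicate block, the 9 members kept the direction of their differences, 0 passed adjustment, and their median stayed between -0.58 and -0.55. Probes called numbered 4 with the trended prior and 0 with the ordinary model, which put 1 member at an unadjusted p under 0.05. The replicate number as a block called 7 probes and put 6 members at an unadjusted p under 0.05, 5 lower and Ctsh higher, beside 11.1% of all probes (smallest adjusted p of a member in limma 0.111), but deviations of same-numbered arrays correlated at only 0.16 over probes and no label pairs the hearts. As single arrays were left out, called probes ranged from 1 to 332, members at an unadjusted p under 0.05 from 2 to 7, members with TTg-MI wholly below from 6 to 8 (beside 32.5% to 36.4% of all probes), and the members' median from -0.81 to -0.28. Ctsc reversed to 0.33 (Ctrl-MI replicate 1 left out) and 0.23 (TTg-MI replicate 2 left out), and among all these fits members passed adjustment only with Ctrl-MI replicate 2 left out (Ctss at -2.86 and Ctsz at -1.78). The inhibitors' median was -0.67 with dim probes filtered out, which removes the dimmest inhibitors. The cause of the other shifts was not tested. Where a group is left with 1 array, its spread is taken to equal that of the other group. Dim genes have no detection call here, so their differences may be understated.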
